A study of Mus musculus with 28 samples.

Results

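The mouse Apobec family and the RNA-binding partners of Apobec1 were followed across liver, pancreas and lung of mice that express human APOBEC3B (A3B). The 5 members, Apobec1, Apobec2, Apobec3, A1cf and Rbm47, were taken by name from a list of mouse relatives of the transgene and of Apobec1 cofactors, and they are 5 of 35928 gene symbols with values in liver and pancreas. The question was whether the endogenous deaminases and their cofactors differ in level or in transcript form between A3B mice and controls, and between tissues.

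Of the 28 samples, 16 have values per transcript and are called set 2, and 12 have values per gene and are called set 1. Set 2 holds livers from 6 A3B and 2 control mice and pancreases from 6 A3B and 2 control mice, and 5 A3B mice and both controls gave both tissues. Set 1 holds livers and lungs from 3 A3B and 3 control mice each, and A3B mouse 70 and control mouse 91 gave both tissues. A3B mice carried a doxycycline-inducible A3B-turboGFP transgene under a tetO promoter in the Col1a1 locus of one embryonic stem cell line, together with CAGs-rtTA3, a driver that is active in most cell types. Doxycycline food at 625 ppm was given to adults from about 4 weeks of age. Controls of set 2 carried the A3B transgene without the driver, and every mouse of set 2 is labelled with 10 days on doxycycline. The mouse table of the study also lists both set 2 controls as on doxycycline, whereas a legend calls its pair of pooled controls untreated, so it is not settled that A3B and control mice of set 2 were matched for doxycycline. In set 1, controls 88, 91 and 92 are labelled with the A3B transgene alone and control lung 87 with the driver alone, both of them control genotypes of the study. In set 1 the A3B lungs and A3B liver 70 are labelled with 10 days, A3B livers 23 and 28 with 14 days and the controls with 15 days, although the mouse table of the study lists most of these controls as not on doxycycline. Several genotype labels go against the titles, which set the groups here: A3B pancreases 44 and 137 are labelled with the transgene alone, and control pancreases 45 and 168 and control liver 11 with transgene and driver. Each replicate is a separate mouse.

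APOBEC proteins are zinc-dependent cytidine deaminases that turn cytosine into uracil in DNA or RNA. Apobec1 is the enzyme that edits the apolipoprotein B mRNA in mouse liver and intestine, and it depends on RNA-binding cofactors for its target sites. A1cf (APOBEC1 complementation factor) and Rbm47 are such cofactors, and both are known from epithelial tissues. Apobec3 is the only APOBEC3 gene of the mouse and restricts retroviruses in lymphoid cells, and Apobec2 is a muscle protein without an established editing activity.

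In GRCm38 the genes lie at chr6:122577792-122602444 (minus strand, Apobec1), chr17:48419231-48432930 (minus, Apobec2), chr15:79891659-79915906 (plus, Apobec3), chr19:31868764-31948995 (plus, A1cf) and chr5:66016549-66173118 (minus, Rbm47). Annotated transcripts of 3 members differ by a coding segment that can be read from the transcript values. These segments are shown because the isoform results below turn on them, in capitals between the lower-case ends of the neighbouring exons, and each is followed by the junction of the form that lacks it, in which the capitals mark the downstream exon. Apobec3 exon 5, of 99 bases or 33 codons, lies at chr15:79899020-79899118. An alternative coding exon of Rbm47, of 207 bases or 69 codons, lies at chr5:66024953-66025159. The A1cf segment, of 24 bases or 8 codons, lies at chr19:31934628-31934651 and extends an exon at its 5′ side.
Apobec3 with exon 5: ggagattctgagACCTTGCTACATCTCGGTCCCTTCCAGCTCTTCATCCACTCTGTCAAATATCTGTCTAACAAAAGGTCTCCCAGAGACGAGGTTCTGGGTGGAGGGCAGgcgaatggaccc
Apobec3 without exon 5: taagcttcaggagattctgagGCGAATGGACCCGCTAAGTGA
Rbm47 with the alternative exon: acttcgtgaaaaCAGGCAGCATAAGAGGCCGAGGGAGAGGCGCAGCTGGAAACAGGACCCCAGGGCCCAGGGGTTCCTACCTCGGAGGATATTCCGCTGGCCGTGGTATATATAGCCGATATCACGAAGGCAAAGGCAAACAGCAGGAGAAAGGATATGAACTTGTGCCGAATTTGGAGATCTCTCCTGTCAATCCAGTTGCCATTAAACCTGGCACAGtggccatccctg
Rbm47 without the alternative exon: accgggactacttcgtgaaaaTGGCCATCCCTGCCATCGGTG
A1cf with the segment: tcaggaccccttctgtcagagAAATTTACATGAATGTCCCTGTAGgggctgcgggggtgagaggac
A1cf without the segment: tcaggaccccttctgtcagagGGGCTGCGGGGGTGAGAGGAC

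Set 2 libraries held 65161064 to 118976013 estimated counts each, and set 1 gives TPM (a level per transcript length, scaled to the same total in every library) without counts, so its depth is unknown. The human transgene, listed in set 1 only, stood at 0.0928 to 0.526 TPM in the controls, at 705 to 1705 TPM in A3B livers and at 90.6 to 281 TPM in A3B lungs, whereas it was not quantified here in set 2. All 6 hepatocyte, acinar and alveolar and airway marker genes were detected in liver, pancreas and lung, respectively. A3B liver 48 stood apart from the other 5 A3B livers, with correlations of 0.789 to 0.812 over genes against 0.885 to 0.942 among the others. The 2 control pancreases, on which every pancreas comparison rests, correlated at 0.797, against 0.880 to 0.929 among the A3B pancreases. In pancreas the 10 genes with the most counts held 59.5% and 62.2% of a library in the controls and 12.04% to 20.4% in the A3B mice. TPM values and CPM (counts per library total, scaled by TMM, the trimmed mean of M values, which sets most genes to no change) differ for pancreas, and both are given.

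**Figure D1:**
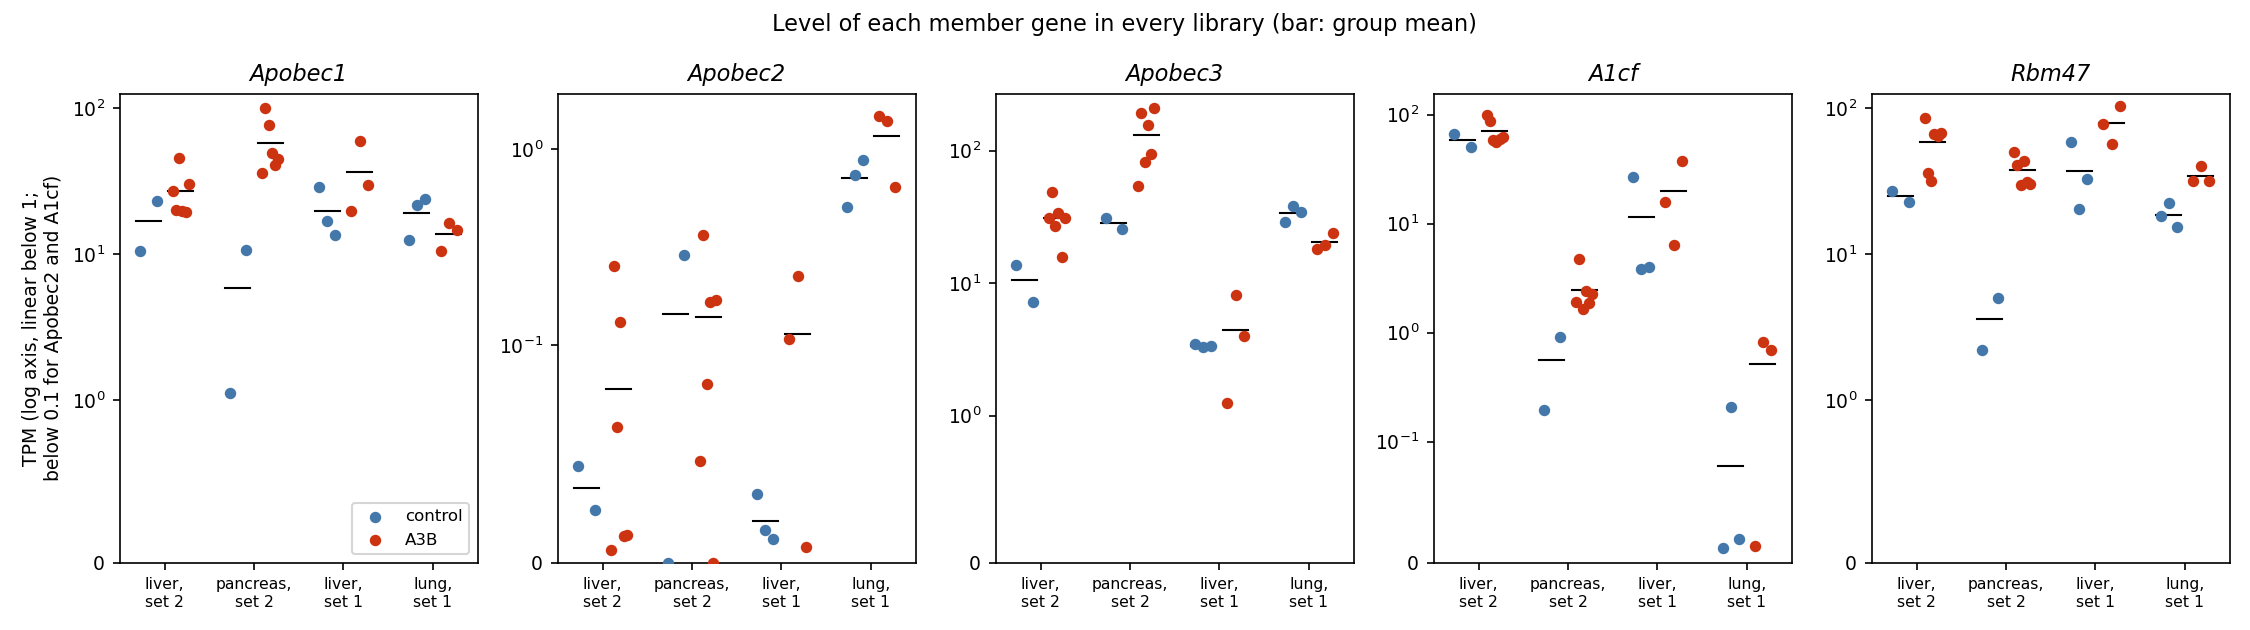
TPM of the 5 genes in each library, with controls in blue, A3B mice in red and bars at group means, on an axis that is logarithmic above 1 TPM (above 0.1 TPM for Apobec2 and A1cf) and linear below. In pancreas the 6 A3B samples lie above both controls for Apobec1, Apobec3, A1cf and Rbm47, and in lung Apobec3 lies lower and Rbm47 higher in the A3B mice. Set 1 and set 2 were quantified with different tools, so levels are read within a set.

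In control tissue A1cf was a gene of the liver, whereas Apobec3 stood higher in pancreas and lung. A1cf stood at 66.4 and 50.6 TPM in the control livers of set 2 (mice 45 and 168) and at 0.197 and 0.919 TPM in their pancreases. Apobec3 ran the other way, at 13.8 and 7.20 TPM in liver and 31.2 and 25.6 TPM in pancreas. Without its retained-intron transcript Apobec3-208, Apobec3 in mouse 45 was no longer higher in pancreas in TPM (1.78 against 2.38 in liver), although the test after TMM scaling still called it (3.29, adjusted p = 0.00784). With all transcripts, edgeR's quasi-likelihood test called both, A1cf at a log2 difference (pancreas over liver) of -5.36 ± 0.53 (SE) with an adjusted p of 4.43e-06 and Apobec3 at 3.13 ± 0.67 with an adjusted p of 0.0018. In this contrast 39.9% of all genes were called, so 2 of 5 members called is near that share. Both calls were kept in each of the 24 other settings tried.

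Rbm47 stood at 27.0 and 22.8 TPM in control liver and 2.22 and 5.02 TPM in control pancreas. TMM scaling placed it at -0.92 ± 0.38 on the log2 scale, short of the threshold with an adjusted p of 0.0608, whereas the fit with the mouse as a replicate block gave -0.95 and called it. Apobec1 stood at 10.5 and 23.3 TPM in liver and 1.12 and 10.7 TPM in pancreas, which overlap, and its difference of -0.40 ± 0.61 had an adjusted p of 0.633. Within each of the 2 mice its TPM was lower in pancreas, and limma on TPM called it lower (-1.75, adjusted p = 0.0305) together with 55.7% of all genes, at a median over all genes of -1.09. Without control pancreas 168, edgeR gave -2.05 (adjusted p = 0.0281), with 1 control pancreas assumed to vary like the other groups. Apobec2 was below 0.3 TPM in all 4 control libraries of set 2, and its difference was not called (adjusted p = 0.198). Ordered by mean TPM, the control livers ran A1cf, Rbm47, Apobec1, Apobec3 and Apobec2, and the values of Rbm47 and Apobec1 overlapped, as did those of Apobec1 and Apobec3. The control pancreases ran Apobec3, Apobec1, Rbm47, A1cf and Apobec2, where Apobec3 lay above all others in both mice. The values of Apobec1 and Rbm47 overlapped there, as did those of A1cf and Apobec2. The place of Apobec3 turned on its transcript Apobec3-208. Without that transcript it stood at 1.78 TPM in control pancreas 45, below Rbm47 (2.22 TPM), and at 16.1 TPM in control 168, still above the others. In the control livers it then stood at 2.38 and 1.71 TPM, below Apobec1 in both.

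Control lung and liver of set 1 came from other animals, and mouse 91 gave both tissues. Apobec3 stood at 28.7, 38.2 and 34.4 TPM in control lungs 87, 88 and 91 and at 3.46, 3.32 and 3.33 TPM in control livers 11, 91 and 92, a log2 difference (lung over liver, log2 of TPM + 1) of 2.98 ± 0.39 with an adjusted p of 5.12e-05 in limma. A1cf was at 0.0121, 0.208 and 0.0200 TPM in lung and at 27.0, 3.85 and 4.04 TPM in liver, a difference of -3.03 ± 0.69 with an adjusted p of 0.00228. The livers themselves differed widely for this gene, with mouse 11 above the others. Rbm47 stood at 18.1, 22.4 and 15.3 TPM in lung and 58.3, 20.5 and 32.7 TPM in liver. Its difference of -0.85 ± 0.35 passed narrowly at an adjusted p of 0.0458, although the groups overlap, and it passed in 6 of 16 other settings. Apobec1 overlapped between the tissues, at 12.4, 21.6 and 23.7 TPM in lung and 28.8, 16.8 and 13.5 TPM in liver, with a difference of -0.01 ± 0.41 and an adjusted p of 0.983. Here 72.5% of all genes were called, against 3 of the 4 members tested. Apobec2 reached 0.506 to 0.876 TPM in control lung, above the 0.0109 to 0.0317 TPM of control liver, but lay under the mean of 1 TPM needed for the test.

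In A3B pancreas the cofactor Rbm47 was the member whose rise passed the test. It stood at 2.22 TPM in control 45 and 5.02 TPM in control 168, and between 29.9 and 49.8 TPM (median 35.8) in the 6 A3B pancreases, so the groups were well apart. After TMM scaling the A3B libraries held 50.9 to 91.8 CPM and the controls 41.0 and 26.3 CPM, still without overlap. The log2 fold change was 1.03 ± 0.29 with an adjusted p of 0.0217 in edgeR's quasi-likelihood test. Over all genes 31.9% were called in this comparison, 3252 higher and 2848 lower, so 1 of 5 members is no excess. Leaving out control 168 gave 0.75 and an adjusted p of 0.144, and it was the one of 15 other settings in which the call was lost.

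Apobec1, the editing enzyme itself, had 1.12 TPM in control pancreas 45 and 10.7 TPM in control 168. The A3B pancreases lay between 36.2 and 100.5 TPM with a median of 47.0. All A3B values were higher than both controls, in TPM and after TMM scaling (44.9 to 89.6 against 6.85 and 34.7 CPM), but the controls lay far apart from each other. The log2 fold change of 1.55 ± 0.57 had an adjusted p of 0.067 and was not called, whereas DESeq2 gave 1.498 and called it. Of all genes, DESeq2 called 36.8%. Without control 168 the fold change was 3.17 and was called, in a fit with 1 control (125 estimated counts of Apobec1), so that the spread came from the A3B pancreases alone. Control 168 also held more T cell marker RNA (24.5 against 0.340 TPM summed over 5 genes) and more B and plasma cell marker RNA (106 against 1.40 TPM over 6 genes) than control 45, and the part of such cells in the Apobec1 level was not tested.

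The direction of Apobec3 turned on the scaling. In TPM it lay between 54.4 and 209 (median 125) in A3B pancreas and at 31.2 and 25.6 in the controls, higher in 6 of 6. After TMM scaling the A3B libraries held 57.6 to 209 CPM and the controls 224 (mouse 45) and 81.5 (mouse 168), so the groups overlapped and the log2 fold change was -0.30 ± 0.51 with an adjusted p of 0.690. With library totals alone it was 2.17 and called. A1cf turned in the same way at a much lower level, with 1.65 to 4.75 TPM (median 2.09) in A3B pancreas against 0.197 and 0.919 TPM in controls, a fold change of -0.05 ± 0.41 after TMM scaling (adjusted p = 0.938) and 2.02 with totals alone, which was called. Apobec2 ranged from 0 to 0.365 TPM in A3B pancreas and was at 0 and 0.288 TPM in the controls, with a fold change of -2.06 ± 1.22 and an adjusted p of 0.220.

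On the TPM scale all 4 of these genes apart from Apobec2 did not overlap between groups, each with an exact two-sided permutation p of 0.0357, the smallest that 6 against 2 allow. Their mean TPM was 9.85-fold (Apobec1), 4.62-fold (Apobec3), 4.45-fold (A1cf) and 10.3-fold (Rbm47) that of the controls. However, 70.8% of all genes tested in pancreas lay higher in every A3B sample than in every control on this scale, so a rise in TPM by itself does not set the members apart.

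**Figure D2:**
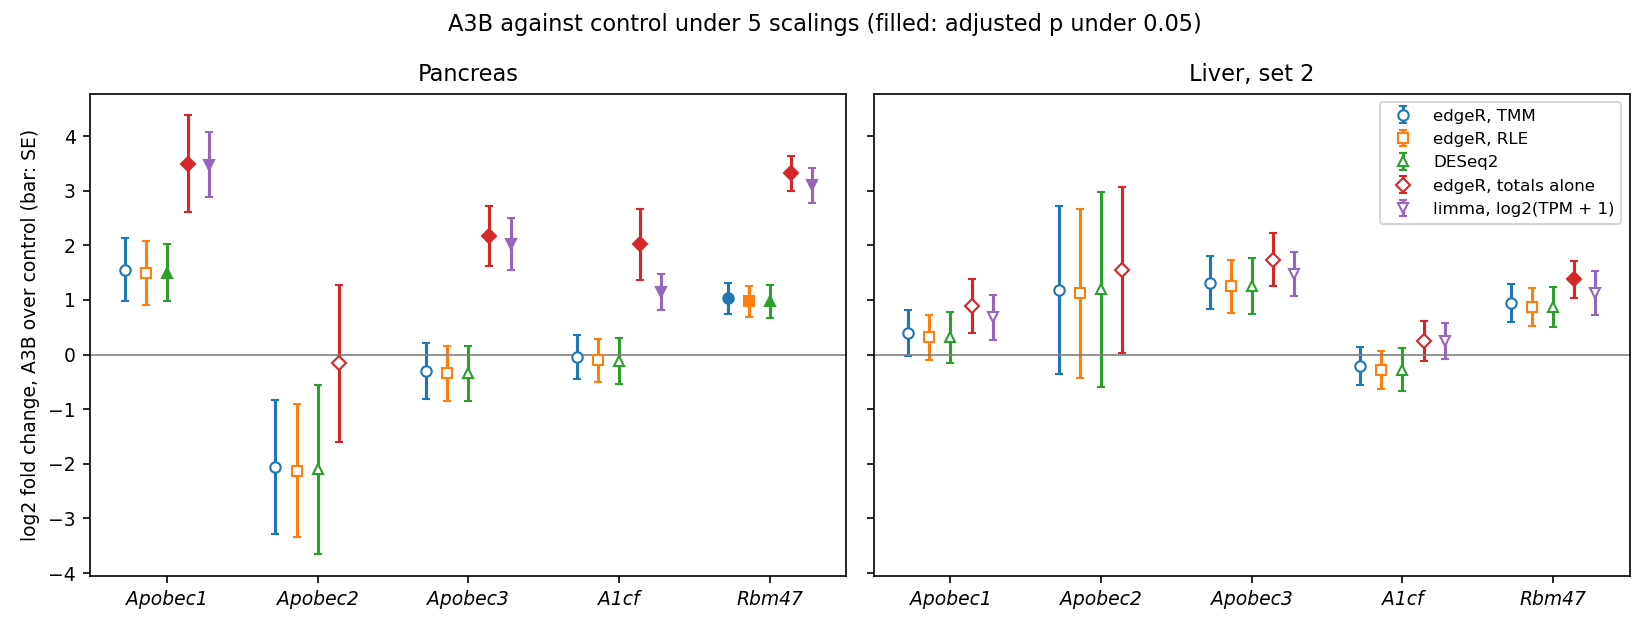
Log2 fold change of A3B over control with its SE for the 5 genes in pancreas and in liver of set 2, under 5 scalings or tests, with filled symbols for an adjusted p under 0.05. In pancreas the fits on library totals and on TPM lie above the fits with TMM, RLE or DESeq2 factors, Rbm47 is called under all 5 and Apobec3 and A1cf change sign. Apobec2 has no value on the TPM scale because it was under 1 TPM.

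The pancreas samples also differed in their levels of cell type marker genes. Summed over 6 acinar genes, A3B samples held 57523 to 156530 TPM and controls 246271 and 262488, and 5 of the 6 genes were called lower. All 5 macrophage genes were called higher (sum 935 to 2512 TPM against 13.9 and 57.3), as were 3 of 5 duct genes (1176 to 2933 against 50.5 and 88.9). The hepatocyte sum, with 0 of 6 genes called, was 107 to 923 TPM against 66.1 and 49.8. No T cell, B or plasma cell gene was called, and the T cell sum was 6.29 to 66.3 TPM against 0.340 and 24.5. The leukocyte gene Ptprc was not called either (8.64 to 34.1 TPM against 0.109 and 10.4), and of 5 neutrophil genes 1 was called higher and 1 lower. The islet sum was higher in every A3B pancreas (3354 to 12533 TPM against 3133 and 3162), although 1 of 4 genes was called lower. The cardiac muscle sum was higher too (6.91 to 24.4 against 1.34 and 4.17), with 0 of 4 genes called. Of the skeletal muscle genes 4 were called lower, with 5.23 to 7.58 TPM against 2.66 in control 45 and 39.3 in control 168. In bulk tissue, fewer cells of a type and less RNA per cell cannot be told apart, and the part of these cells in the values of Rbm47, Apobec1, Apobec3 and A1cf was not tested.

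**Figure D3:**
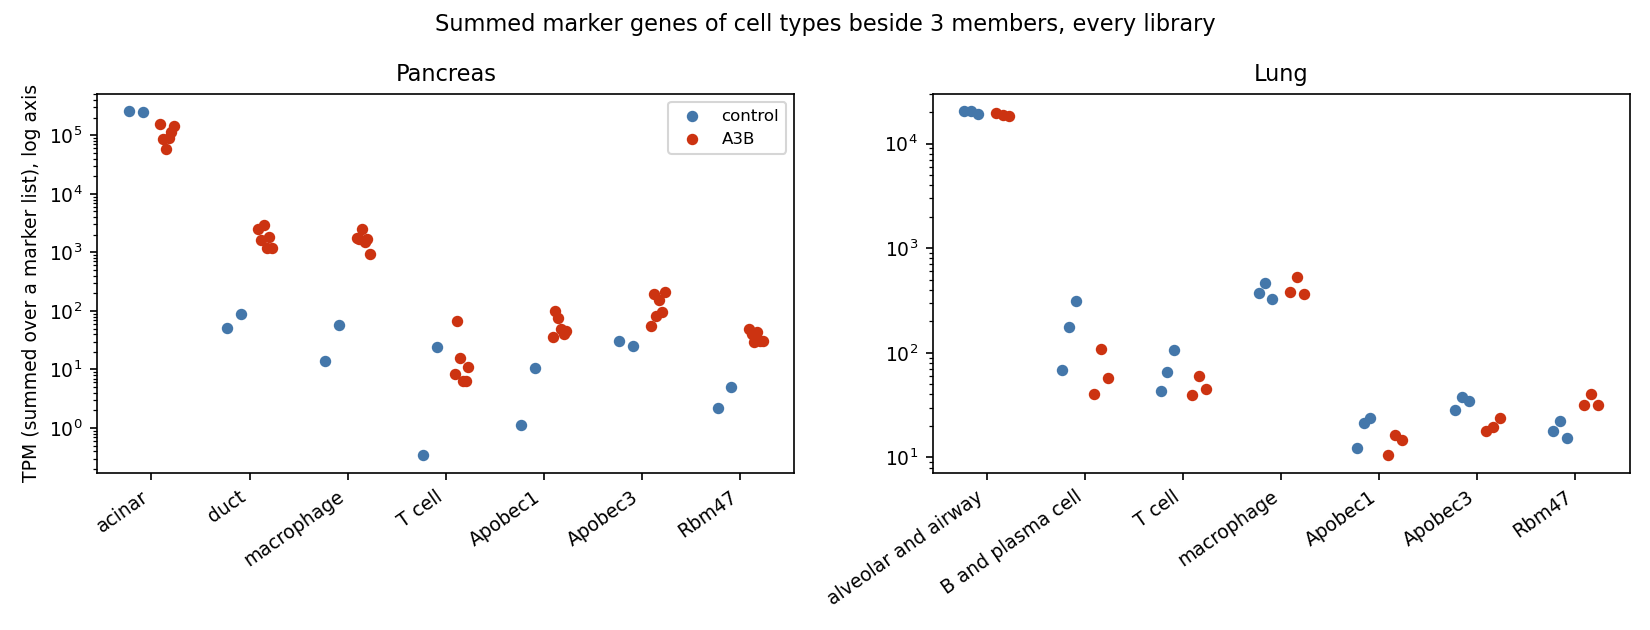
Summed TPM of marker genes for 4 cell types beside the TPM of Apobec1, Apobec3 and Rbm47 in every pancreas and lung library, on a logarithmic axis. In pancreas the macrophage and duct sums lie higher and the acinar sum lower in all 6 A3B samples, whereas in lung only the Apobec3 and Rbm47 values separate the groups among the rows shown.

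In lung, Apobec3 fell and Rbm47 rose. Apobec3 stood at 28.7, 38.2 and 34.4 TPM in controls 87, 88 and 91 and at 17.99, 19.4 and 23.7 TPM in A3B mice 69, 70 and 74. Every A3B lung lay below every control, and the log2 fold change was -0.70 ± 0.15 with an adjusted p of 0.0132 in limma. Rbm47 stood at 18.1, 22.4 and 15.3 TPM in the controls and at 31.7, 40.2 and 31.4 TPM in the A3B lungs, again without overlap, with a log2 fold change of 0.86 ± 0.16 and an adjusted p of 0.0099. The exact two-sided permutation p was 0.1 for each, the smallest possible with 3 against 3. Both calls were kept under each of the 9 other settings, in which Apobec3 ranged from -0.81 to -0.61 and Rbm47 from 0.74 to 0.998.

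The other members did not pass in lung. Apobec1 stood at 12.4, 21.6 and 23.7 TPM in controls and 10.4, 16.4 and 14.6 TPM in A3B lungs, which overlap, with a fold change of -0.42 ± 0.27 and an adjusted p of 0.251. Leaving out control 87, the one labelled with the driver alone, gave -0.69 and called it lower. Apobec2 (0.506 to 0.876 TPM in controls, 0.643 to 1.48 in A3B lungs) and A1cf (0.0121 to 0.208 and 0.0140 to 0.825) were under the limit for the test. Of all genes 36.8% were called in lung, 23.3% lay higher in every A3B lung than in every control and 30.6% lay lower, so 2 of 3 members called stands against a broad background. Apobec3 is known to be abundant in lymphocytes. The T cell sum was 39.8 to 59.7 TPM in A3B lungs and 43.3 to 107 in controls, the B and plasma cell sum 40.5 to 110 against 68.2 to 316, which overlap. None of these genes was called, but their median log2 differences, -0.50 for T cell and -1.16 for B and plasma cell genes, lay on the same side as that of Apobec3, against -0.06 over all genes. Macrophage sums were 365 to 530 TPM in A3B lungs and 328 to 462 in controls. The alveolar and airway sum was 18227 to 19810 against 19267 to 20618 TPM, with 1 of 6 genes called lower. The hepatocyte sum was 44.9, 797 and 637 TPM in A3B lungs 69, 70 and 74 and 32.1, 712 and 67.2 in controls 87, 88 and 91, with 0 of 6 genes called and a median log2 difference of 1.35, against 5608 to 10040 TPM in the livers of set 1. The part of lymphocytes and of liver RNA in the lung values of the members and of the transgene was not tested.

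In liver Rbm47 and Apobec3 lay higher in every A3B mouse of set 2 than in both controls in TPM, but no member passed the test across genes. For set 2, Rbm47 stood at 31.7 to 85.2 TPM (median 65.0) in A3B livers and 27.0 and 22.8 in controls, and Apobec3 at 15.8 to 49.1 (median 30.9) and 13.8 and 7.20. Neither gene overlapped between groups on this scale (exact two-sided permutation p = 0.0357 for each). After TMM scaling Rbm47 in A3B liver 49 (55.5 CPM) lay below control 168 (56.2 CPM), and Apobec3 without its retained-intron transcript Apobec3-208 overlapped, at 1.19 to 8.10 TPM against 2.38 and 1.71 (exact permutation p = 0.429). In TPM, 24.3% of all genes tested also lay higher in every A3B liver. Summed over 6 hepatocyte genes, every A3B liver lay lower (31731 to 73654 TPM against 136626 and 84901), while the sums of 5 neutrophil genes (6.98 to 125 against 5.87 and 3.82), 4 adipocyte genes (27.1 to 256 against 16.4 and 11.2) and 5 cardiac muscle genes (1.95 to 4.67 against 1.56 and 0.739) lay higher in every A3B liver. None of these genes was called in edgeR, and the part of such cells in the member levels was not tested. In edgeR's quasi-likelihood test the log2 fold changes of Rbm47 and Apobec3, 0.94 ± 0.34 and 1.31 ± 0.49, had adjusted p-values of 0.147 and 0.150. None of the 5 members was called, with 2 at an unadjusted p under 0.05 (Apobec3 and Rbm47), while 3.66% of all genes were called. DESeq2 called 0 of the 5 and 13.8% of all genes. The edgeR share rests on both controls, since 636 calls became 74 without control liver 45 and 73 without control liver 168. A1cf (-0.20 ± 0.35), Apobec1 (0.39 ± 0.41) and Apobec2 (1.18 ± 1.54) had adjusted p-values from 0.606 to 0.767.

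For set 1, Rbm47 stood at 78.1, 56.6 and 104 TPM in A3B livers 23, 28 and 70 and at 58.3, 20.5 and 32.7 in controls 11, 91 and 92, overlapping through liver 28 and control 11. Its fold change of 1.16 ± 0.44 had an adjusted p of 0.123 in limma. None of the 4 members tested was called, 1 had an unadjusted p under 0.05, and 7.93% of all genes were called. That share rests on single controls, since 913 calls became 1 without control liver 91 and 9 without control liver 92. A1cf (0.94 ± 0.83), Apobec1 (0.78 ± 0.48) and Apobec3 (0.09 ± 0.50) overlapped between the groups, and mice of one group lay far apart: A1cf ran from 3.85 to 27.03 TPM in the controls, and Apobec3 from 1.25 to 8.09 TPM in A3B livers. Apobec2 and skeletal muscle markers were both highest in A3B livers 48 and 125 of set 2: these had the highest Apobec2 levels of that set's livers, 0.254 and 0.131 TPM, and also the highest sums of 6 skeletal muscle genes, 71.2 and 34.6 TPM, against at most 4.46 TPM in the other A3B livers. Among the livers of set 1, A3B liver 28 was likewise highest in both, at 0.226 TPM of Apobec2 and a muscle sum of 265 TPM. A3B liver 23 had the next Apobec2 level, 0.107 TPM, at a sum of 2.57 TPM. In lung and pancreas they did not run together: Apobec2 was 1.48 TPM in A3B lung 69 at a muscle sum of 46.6 TPM and 0.876 TPM in control lung 91 at 139 TPM. In pancreas it was 0.365 TPM in A3B mouse 49 at a sum of 7.58 TPM and 0.288 TPM in control 168 at 39.3 TPM.

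Whether the A3B effect itself differed between tissues was tested as an interaction. Pancreas minus liver, it was 1.32 ± 0.71 for Apobec1 (adjusted p = 0.231), -1.46 ± 0.72 for Apobec3 (0.193), 0.25 ± 0.43 for Rbm47 (0.740), 0.31 ± 0.51 for A1cf (0.736) and -3.10 ± 2.19 for Apobec2 (0.366) in edgeR. None of 5 was called, and none had an unadjusted p under 0.05, against 11.9% of all genes called. DESeq2 called 0 of 5, against 18.9% of all genes. With the mouse as a replicate block, Apobec1 alone was called, at 1.63, beside 8.1% of all genes. Lung minus liver, limma gave -1.20 ± 0.59 for Apobec1 (adjusted p = 0.194), -0.80 ± 0.56 for Apobec3 (0.351), -0.29 ± 0.49 for Rbm47 (0.706) and -0.49 ± 0.98 for A1cf (0.754). None of 4 was called, none had an unadjusted p under 0.05, and 10.7% of all genes were called. The call of Apobec3 in lung and its absence in liver are thus not shown to differ.

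The files list 50 transcripts of the members, and 18 of them took at least 5% of their gene's TPM in some tissue. In pancreas 7 of 44 member transcripts tested were called, all higher in A3B mice, and 16.3% of all transcripts were called. They were Apobec1-201, Apobec3-217 and 5 of Rbm47 (Rbm47-201, Rbm47-202, Rbm47-203, Rbm47-209 and Rbm47-211). Apobec1-201, the main coding transcript, stood at 0.361 and 4.69 TPM in controls and 22.4 to 57.1 TPM in A3B pancreases, with a log2 fold change of 2.25 ± 0.64 and an adjusted p of 0.0435. Rbm47-202 stood at 1.27 and 1.15 TPM against 9.47 to 16.8 TPM, with 1.43 ± 0.39 and 0.0372. Leaving out single samples moved the count below and above 7, and the calls over all transcripts likewise moved below and above 11174. In liver of set 2 none of 38 was called by edgeR, against 0.162% of all transcripts, and 1 had an unadjusted p under 0.05. DESeq2 called 0 of 38, against 6.05% of all transcripts.

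Rbm47-203 was the member transcript called by the test of usage within a gene. It starts at chr5:66081099 on the minus strand, upstream of the start of Rbm47-202, and ends within the gene at 66018985, and it is annotated as coding. It was listed at 0 in both control pancreases, at 0.604 to 19.2 TPM in A3B pancreases and at 10.4 and 9.13 TPM in the control livers of the same 2 mice. As a share of Rbm47 TPM it was 0% in control pancreas, 2.01% to 38.6% in A3B pancreas (mean 19.6% ± 11.6, SD, n = 6) and 38.5% and 40.1% in control liver. In A3B liver it ran from 0.135%, in liver 48, to 45.0%, so 1 A3B liver lay below every A3B pancreas. The transcript test called it higher in A3B pancreas (adjusted p = 0.0106), and no fold is given against libraries at 0. The test of usage within the gene (edgeR's diffSpliceDGE) called it in A3B against control pancreas (adjusted p = 0.000651) and in control pancreas against control liver (0.000193), where it was lower. It was the one member transcript called of 43 and of 46 tested, with 5.14% and 3.66% of all transcripts called. In liver, A3B against control, none of 37 was called, 2 had an unadjusted p under 0.05, and 0.329% of all transcripts were called. The exact two-sided permutation test of the share in pancreas gave p = 0.0714.

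Another Rbm47 form took a smaller share in A3B pancreas. Rbm47-204, whose start lies upstream at chr5:66098191, took 28.3% and 16.6% in control pancreas and at most 13.3% in each A3B pancreas (exact permutation p = 0.0357). The 207-base alternative exon shown above was included in nearly all Rbm47 TPM that could be assigned: 100% and 100% in control pancreas, 90.4% to 98.1% in A3B pancreas, 98.3% and 98.6% in control liver and 92.6% to 99.1% in A3B liver. Its exact permutation p was 0.179 in both tissues.

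For Apobec1, A3B pancreases drew more on the upstream first exon, which the liver uses. Transcripts that begin there made 47.1% and 66.0% of Apobec1 TPM in the control pancreases, 70.2% to 90.4% in A3B pancreas (mean 80.3% ± 6.64, SD, n = 6), 96.2% and 89.7% in control liver and 74.8% to 98.1% in A3B liver. In pancreas the groups did not overlap (exact permutation p = 0.0357), and in liver they did (p = 0.821). Apobec1-203, which begins at the downstream first exon, took 29.4% and 32.4% in control pancreas and 7.55% to 26.5% in A3B pancreas (p = 0.0357), while Apobec1-201 took 32.4% and 44.0% against 52.3% to 61.8% (p = 0.0357), all by the same exact test. Apobec1-202, the other coding form from the upstream exon, was lower in control pancreas than in control liver, at 0 and 0.313 TPM against 3.47 and 4.13 TPM, with an adjusted p of 0.0293 in the transcript test.

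A1cf in control pancreas was mostly the form with the 24-base segment. That form made 67.0% and 100% of the A1cf TPM that could be assigned in control pancreas, 27.6% to 55.8% in A3B pancreas (mean 39.0% ± 11.1, SD, n = 6), 49.7% and 55.2% in control liver and 29.3% to 79.3% in A3B liver. The exact permutation p was 0.0357 in pancreas and 0.679 in liver. The matching shares of A1cf-201, the form with the segment, fell from 67.0% and 95.2% to between 26.1% and 48.4%, and A1cf-202, without it, rose from 33.0% and 0% to between 38.4% and 68.5% (p = 0.0357 for each, exact). These control shares rest on 52 and 245 estimated counts for the whole gene, against 359 to 900.0 in A3B pancreas. Between control pancreas and control liver, 11 of 47 member transcripts were called, against 17.2% of all transcripts: 4 of A1cf, 4 of Rbm47 and Apobec1-202 were lower in pancreas, and Apobec3-208 and Apobec3-215 were higher. The call of Apobec3-208 (2.52 ± 0.81, adjusted p = 0.0444 in edgeR) was made in 10 of 20 other settings, in which it ranged from 0.56 to 3.30, and its TPM overlapped, at 29.4 and 9.52 in pancreas against 11.4 and 5.49 in liver.

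A transcript that keeps an intron took most of the Apobec3 TPM in all 8 livers and in 5 of 8 pancreases. Apobec3-208, of 1693 bases at chr15:79892449-79896982, is annotated as a retained-intron transcript and holds 1424 intron bases. It took 82.7% and 76.3% of Apobec3 TPM in control liver, 69.9% to 97.6% in A3B liver, 94.3% and 37.2% in control pancreas and 26.1% to 80.7% in A3B pancreas. Retained-intron transcripts of all genes together took 2.66% to 4.98% of TPM in the A3B livers, above the 2.27% and 2.04% of both controls, and 2.05% to 4.54% in the A3B pancreases against 4.72% and 4.32%. Their part in the Apobec3 values was not tested. Of its 1663 words of 31 bases, 168 (10.1%) also occur in transcripts of 24 other genes, so some of its reads could come from elsewhere, and the strand setting of the counting is not given in the sources used here. Without it, Apobec3 stood at 1.78 TPM in control pancreas 45, 16.1 TPM in control 168 and 10.5 to 142 TPM in A3B pancreas, where A3B mouse 44 was the lowest and overlapped control 168. The fold change was then 0.87 (adjusted p = 0.444) in pancreas and 0.56 (0.645) in liver, in place of -0.30 and 1.31. Control pancreas over control liver was called with and without that transcript (3.29 without it, after TMM scaling), although in TPM mouse 45 then had less in pancreas (1.78) than in liver (2.38), and mouse 168 had more (16.1 against 1.71).

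Exon 5 of Apobec3 set mouse 44 apart. Among transcripts that cover the site, those with exon 5 made 82.3% of the TPM in pancreas 44 and 17.0% to 28.1% in the other 5 A3B pancreases, against 3.80% and 17.5% in controls. Mouse 44 was also the highest in liver, at 73.1% against 24.4% to 46.5% in the other A3B livers and 49.1% and 28.4% in controls. Many of these shares rest on low levels. With and without exon 5, A3B liver 44 held 2.10 and 0.775 TPM, A3B liver 48 held 0.505 and 0.581 TPM, and control pancreas 45 held 0.0488 and 1.23 TPM. The groups overlapped in both tissues (exact permutation p = 0.321 in pancreas and 0.964 in liver). Of 22 shares compared in this way per tissue, 7 reached the smallest possible exact p of 0.0357 in pancreas and 0 did in liver, and shares of estimated counts in place of TPM gave the counts 7 and 0. Several of the 7 describe the same transcripts. Of single transcripts with at least 5% of their gene's TPM, 5 of 16 members' transcripts that could be tested reached it in pancreas, against 24.8% of all such transcripts, and 0 of 18 in liver, against 5.86%. A control could not be left out, since an exact permutation test of 6 against 1 cannot pass (smallest p = 0.143).

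**Figure D4:**
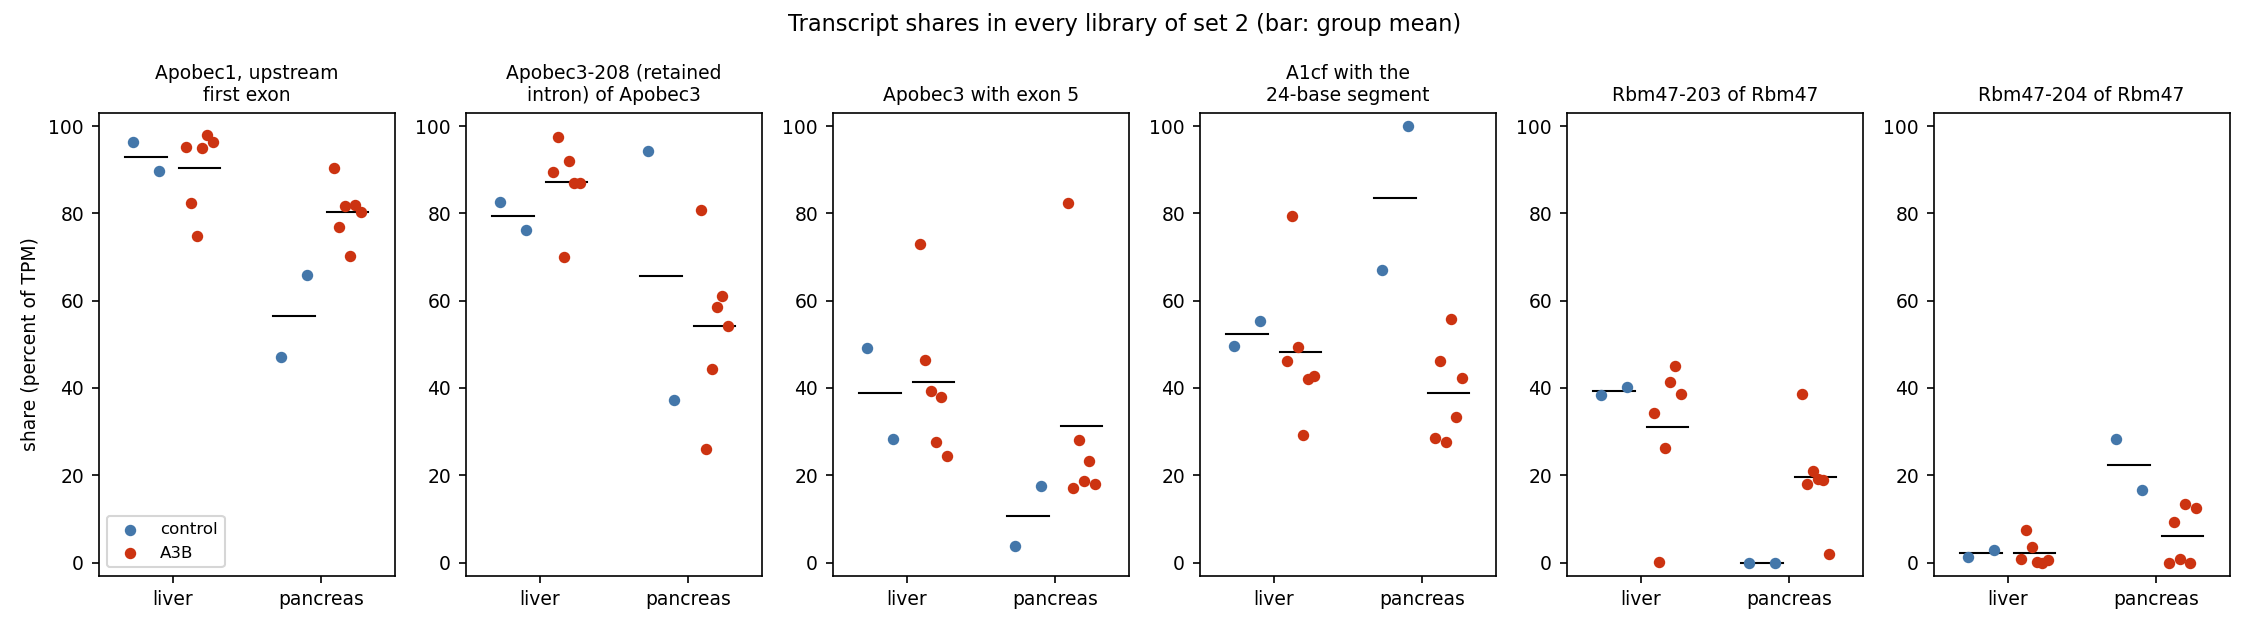
Percent of the TPM of a gene taken by the named transcript or segment in each liver and pancreas library of set 2, with controls in blue, A3B mice in red and bars at group means. Control pancreas lies below every liver for the Apobec1 upstream first exon and, at 0%, below the control livers for Rbm47-203, where A3B liver 48 also lies at 0.135%. In A3B pancreas 44, forms with exon 5 make 82.3% of the Apobec3 TPM that covers the site, against at most 28.1% in the other A3B pancreases.

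Promoter windows of the members were taken from RefSeq (GRCm38.p6, 250 bases before to 50 after each annotated start), where the 5 genes have 8 entries. They are read here for letters only, on both strands. GAAANNGAA, the core of the interferon-stimulated response element, was found in 1 of the 8, the upstream Apobec3 start (first base at position -139 relative to it), and in 8.56% of all 32851 promoter windows. TATAAA was found for Apobec1 (position -212), for the downstream Apobec3 start (-21) and for Apobec2 (-34), and in 13.6% of all windows. GTTAAT, a half-site of the hepatocyte factor HNF1, was in none of the 8 and in 7.10% of all. Rbm47, with 3 entries, and A1cf, with 1, held none of these letters. The windows at the upstream Apobec3 start, chr15:79892158-79892457 on the plus strand, where Apobec3-208 and Apobec3-215 begin, and at the upstream Apobec1 exon, chr6:122602395-122602694 on the minus strand, are printed because the isoform results turn on these starts, with the matches in capitals.
Apobec3 upstream start: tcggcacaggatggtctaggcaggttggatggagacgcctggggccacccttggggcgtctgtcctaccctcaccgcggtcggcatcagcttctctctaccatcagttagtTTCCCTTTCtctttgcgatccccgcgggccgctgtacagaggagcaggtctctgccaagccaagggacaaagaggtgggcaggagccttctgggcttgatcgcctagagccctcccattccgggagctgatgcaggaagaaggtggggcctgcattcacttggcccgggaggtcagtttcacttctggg
Apobec1 upstream start: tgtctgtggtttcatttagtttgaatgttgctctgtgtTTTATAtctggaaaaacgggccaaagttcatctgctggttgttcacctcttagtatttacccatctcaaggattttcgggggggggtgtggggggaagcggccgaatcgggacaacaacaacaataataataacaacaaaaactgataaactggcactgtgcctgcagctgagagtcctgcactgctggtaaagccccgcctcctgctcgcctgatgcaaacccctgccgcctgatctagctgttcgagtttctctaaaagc

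Among 8 other genes of the editing machinery (Apobec4, Syncrip, Celf2, Khsrp, Hnrnpab, Hnrnpc, Dnajb11 and Bag4), 2 of 7 tested were called in pancreas, against 31.9% of all genes. Hnrnpab, an RNA-binding protein found with Apobec1, rose (1.12 ± 0.33, adjusted p = 0.0244 in edgeR), Dnajb11, a chaperone, fell (-1.04 ± 0.28, 0.0186), and the list median was 0.32 against 0.09 over all genes. In liver of set 2, 0 of 7 were called, with 2 at an unadjusted p under 0.05, against 3.66% of all genes. In lung 2 of 7 were higher and 2 lower, against 36.8% of all genes called, with a median of 0.21 against -0.06. Among them Bag4 rose (0.78 ± 0.12, adjusted p = 0.00572), Celf2, a splicing regulator, rose (0.41 ± 0.11, 0.0262) and Hnrnpc fell (-0.29 ± 0.08, 0.0341). In liver of set 1, Syncrip, an Apobec1-binding protein, rose (1.31 ± 0.31, adjusted p = 0.0455), the single call of 7 (7.93% of all genes), and its effect in lung was lower than in liver (-1.09 ± 0.28, 0.0325). Between controls, 1 of 7 was lower (Bag4, -1.92 ± 0.46, 0.00369) in pancreas than in liver, against 39.9% of all genes, and 5 of 7 were higher in lung than in liver, against 72.5%, Celf2 by 2.38 ± 0.23. Apobec4 was too low to be tested in any of these.

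A second list held 6 transcripts examined as Apobec1 targets, Apob, App, B2m, Tmem30a, Serinc1 and Selenof. Their levels, not their editing, are given here. In pancreas 3 of 6 rose and 2 fell, against 31.9% of all genes called, with a median of 1.13 against 0.09 over all genes. App, the amyloid precursor, rose (1.41 ± 0.32, adjusted p = 0.00826), B2m, the light chain of MHC class I, rose (2.03 ± 0.51, 0.0133) and Selenof fell (-2.49 ± 0.29, 0.000327). In liver 0 were called in either set by edgeR or limma, against 3.66% of all genes in set 2 and 7.93% in set 1. At an unadjusted p under 0.05 were 3 of 6 in set 2 (Tmem30a, Apob and Selenof) and 2 of 5 in set 1 (App and Serinc1). In lung App was higher (0.40 ± 0.13, adjusted p = 0.0477) and Selenof lower (-0.73 ± 0.13, 0.00885) of 5 tested, against 36.8% of all genes. B2m was the 1 of 6 targets whose A3B effect was called different between pancreas and liver (3.13 ± 0.80, 0.0211), near the 11.9% of all genes called. Apob, the classical target, stood lower in control pancreas than in control liver by -9.83 ± 1.78 on the log2 scale (adjusted p = 0.000511), and in control lung by -7.19 ± 0.96 (5.55e-05). B2m was listed at 0 in all 12 libraries of set 1 and was not tested there.

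Across the 16 libraries of set 2, the level of each member on the log2(TPM + 1) scale was compared with 13576 genes whose mean reached 1 TPM (13577 for Apobec2). These correlations join 2 tissues and 2 genotypes and are a description. A1cf was most like Cdh2, Kmo and Hacl1 (r = 0.99 each), and Rbm47 most like Dcaf5, Ik and Zbtb7a (0.99 each). Apobec1 was most like Sept7, Ensa and Rabggtb (0.95 each), Apobec3 most like 9130230L23Rik, Lama5 and Ezh2 (0.94, 0.93 and 0.93), and Apobec2, which lay under 1 TPM, most like Pdlim3, Acap1 and Tnni2 (0.89, 0.84 and 0.83). Between members, Apobec1 and Rbm47 had r = 0.66, Rbm47 and A1cf 0.57, Apobec1 and A1cf 0.02 and Apobec3 and A1cf -0.57.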

How the data were processed

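RNA of 28 mouse tissue samples was sequenced by the authors from total RNA with a stranded TruSeq kit. For set 2 the files the authors deposited hold kallisto's estimated count and TPM of each mm10 transcript, without later scaling. For set 1 the authors deposited TPM per gene, made from STAR alignments with GenomicAlignments and GenomicFeatures. The strand setting and read filters of kallisto are not given in the sources used here. Of 119414 transcripts, 116728 (97.8%) were matched to 35928 gene symbols and 2686 were not.

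Estimated counts were summed per gene, rounded, filtered with filterByExpr, scaled with TMM and tested with edgeR's robust quasi-likelihood test, which replaced the DESeq2 test of the study as the main one. Transcripts were tested in the same way, and usage within a gene with diffSpliceDGE. Set 1 was tested with limma (trend, robust) on log2(TPM + 1) for genes whose mean reached 1 TPM, on which scale folds of low genes are understated. P-values were adjusted by Benjamini-Hochberg over all genes or transcripts tested, with a threshold of 0.05. For single levels and shares, exact two-sided permutation tests were used. The alternatives were DESeq2, RLE factors, library totals alone, no filter, limma on TPM, a pseudocount of 0.1, no trend or robust settings, each sample left out, the 2 A3B pancreases with conflicting labels left out and the mouse as a replicate block. The scripts were tested on simulated data. Software was R 4.3.3, edgeR 4.0.16, limma 3.58.1, DESeq2 1.42.0 and Python 3.11.15.

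Named are all 5 members, their transcripts with at least 5% of the TPM of the gene in a tissue, up to 3 genes per list and comparison with the smallest p, and the 3 genes most like each member. Members of 5 or fewer called transcripts outside this rule, such as Apobec3-217, were named after their values were seen. The members and lists were chosen with earlier results of these data known. One item of a gene list is not reported here. Liver and pancreas with one number come from one animal, which makes them pairs, and only the fits with a replicate block take this in. Deviations from the group means correlated at 0.212, -0.0044, 0.246, 0.279 and 0.0935 in A3B mice 44, 49, 125, 137 and 153. Livers and pancreases of different A3B mice correlated at -0.208 to 0.301. With 2 controls the deviations mirror each other, so both control pairs have the same value (0.0075). Whether pairs were closer than other mice was not tested.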

Additional observations from a re-analysis of the deposited data

Results flagged for a closer look

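Of 54 groups of 5 or 6 values examined, 9 held a sample far from the others, and chance alone sets apart about 1 in 20 groups. In level, A1cf in A3B pancreas 49 stood at 4.7489 TPM, with the next sample at 2.43 TPM.

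In transcript shares, A3B liver 48 stood apart for A1cf-202 (17.1917%, the next at 39.4%) and Rbm47-202 (83.8821%, the next at 29.5%), and it is the library that correlated least with the other A3B livers. A3B liver 49 stood apart for Apobec1-209 (4.9865%, the next at 2.51%). In pancreas, mouse 153 stood apart for Rbm47-202 (55.8305%, the next at 33.1%) and for the forms Apobec2-201 (64.3381%) and Apobec2-202 (35.6619%), where the others were at 100% and 0% of a gene with at most 30.5 estimated counts. Pancreas 125 stood apart for the Rbm47 alternative exon (90.3607%, the next at 96.3%), and pancreas 44 for Apobec3 exon 5 (82.3387%, the next at 28.1%).

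Apobec3 was lower in every A3B lung than in every control lung (-0.7027 on the log2(TPM + 1) scale) and higher in TPM in every A3B liver and pancreas of set 2 than in their controls. The difference between lung and the set 2 tissues was not tested, since the sets were quantified separately, and the pancreas direction turned with the scaling.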

How the results depend on the processing

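Of 570 alternative values for single members, 508 kept direction and side of the threshold, 22 newly passed, 11 no longer passed and 29 changed sign. With library totals alone, called members numbered 4 in pancreas (71.5% of all genes called), 1 in liver of set 2 (6.44%) and 3 for pancreas minus liver (40.5%). With limma on TPM they numbered 4 of 4 in pancreas (85.0% of all genes), 2 of 4 for pancreas minus liver (57.7%) and 4 of 4 for control pancreas against liver (55.7%), and with DESeq2 2 in pancreas (36.8%). Called transcripts numbered 17 of 44 (totals, 36.3% of all transcripts) and 14 of 44 (DESeq2, 25.7%) in pancreas and 17 of 47 (DESeq2, 27.7%) in control pancreas against liver. With a replicate block, 1 member was called for pancreas minus liver (Apobec1, 1.63), and Rbm47 in control pancreas against liver at -0.95. It changed no other call of a member gene, and 10 member transcripts in place of 11 were called in control pancreas against liver.

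Leaving out single samples gave ranges of 0 to 1 called members in liver of set 2 (1 without A3B liver 49, namely Rbm47 at 0.999), 0 to 1 for pancreas minus liver (1 without control pancreas 168, Apobec1 at 2.98), 0 to 1 for lung minus liver (1 without A3B liver 23, Apobec3 at -1.32), 3 to 10 called transcripts in pancreas and 5 to 14 in control pancreas against liver. Over all genes, calls without single samples ran from 73 to 1596 in liver of set 2, 1 to 1562 in liver of set 1, 3826 to 5822 in pancreas and 2998 to 4579 in lung. Calls over all transcripts also moved in both directions without single samples, in pancreas and in control pancreas against liver. A fit without 1 control of set 2 has 1 control in that tissue, assumed to vary like the other samples. The counts of shares that passed ranged from 6 to 9.

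Changes of sign concerned differences not called with TMM, although Apobec3 and A1cf in pancreas were called higher with totals alone and with limma. In pancreas, Apobec3 was 2.17 with totals alone, 2.02 with limma and 0.87 without its retained-intron transcript, an alternative added after seeing the data, and -0.84 to 0.62 without single samples. A1cf was 2.02, 1.15 and, without the A3B pancreases of conflicting label, 0.052, and -0.45 to 0.58 without single samples (0.04 without A3B pancreas 53, 0.01 without 137). In liver of set 2, A1cf was 0.25 with totals alone and 0.25 with limma, and Apobec1 was -0.087 (without control 45) to 0.84 without single samples. For pancreas minus liver, Apobec3 was 0.44, 0.54 and 0.45 under the same 3 settings, and A1cf was -0.10 (without control pancreas 45) to 0.97. Without single samples Apobec2 was -2.96 to 6.31 in pancreas, -4.01 to 5.01 for pancreas minus liver and -4.87 to 4.16 for control pancreas against liver, the sign turning without control pancreas 168. Apobec1 in control pancreas against liver was -2.05 (called, without pancreas 168) to 0.34 (without pancreas 45, 0.12 without liver 168). In set 1, Apobec3 in liver was -0.39 (without A3B liver 28) to 0.62, A1cf for lung minus liver was 0.40 at a pseudocount of 0.1 and -1.33 to 0.10 without single samples (0.10 without A3B liver 70), Rbm47 was -0.68 to 0.058 (0.058 without control liver 91), and Apobec1 in control lung against liver was 0.13 with the replicate block, and -0.235 to 0.29 without single samples (0.26 without lung 87, 0.29 without liver 11). The cause of these shifts was not tested.

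Controls number 2 per tissue in set 2, and the calls of Apobec1 and Rbm47 in pancreas change when control 168 is left out. Set 1 has no counts, and A1cf in control pancreas rests on few counts.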
